A study of Mus musculus with 18 samples.

Results

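This account concerns the response of cultured mouse muscle cells to a control siRNA. Myotubes given an siRNA against GL2, a firefly luciferase that the mouse genome does not encode, were compared with myotubes left untreated, over every gene whose array probe was detected on enough arrays. There were 7 GL2 siRNA arrays and 4 untreated arrays, 11 of the 18 arrays of the study, and the remaining 7 carried RNA of myotubes given an siRNA against dystrophin. A probe was kept where its detection p-value, the chance of such a bead signal from the array's negative controls, lay below 0.05 on at least 4 of the 18 arrays. That left 19437 of 46632 probes, which named 10535 genes.

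All cultures were primary myoblasts from C57BL/10 pups of 3 to 5 days of age limb muscle, a strain with intact dystrophin. Both siRNAs were given with the lipid reagent Oligofectamine at 100 nM, on day 2 after seeding to dividing myoblasts and on day 4 together with serum-free medium, and RNA was taken on day 6 after 48 hours of differentiation. No transfection is described for the untreated cultures, so the contribution of the lipid and that of the RNA duplex cannot be told apart here. Cells of several animals were mixed for each of the 4 occasions on which cultures were raised, and the labels do not say which array belongs to which occasion, so the p-values measure the spread between arrays. In a culture dish, fewer cells of a type and less RNA per cell cannot be told apart either.

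A small interfering RNA enters the RNA-induced silencing complex, whose guide strand directs Argonaute proteins to matching transcripts. Without a full match it can still lower transcripts through its seed region, as a microRNA does, and duplex RNA or cationic lipid can be sensed by innate immune receptors that lead to interferon-stimulated genes. Myotubes are fused, postmitotic muscle cells that assemble sarcomeres from isoforms of myosin, troponin and Z-disc proteins. Which isoforms dominate, slow or fast, follows nerve activity, calcium signalling through calcineurin and load, and the set is still plastic in culture.

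The arrays did not differ much in quality. Between 17551 and 18530 probes were detected per array over the 11 arrays, and the median bead signal was 98.6 to 111.8 in untreated and 94.3 to 105.2 in GL2 siRNA cultures. The 18 arrays were divided into 4 clusters by their deviations from their group means, and the number 4 was set rather than found. Cluster 1 held array 1 of every group, cluster 2 untreated array 2 with siRNA arrays 2 and 3, cluster 3 untreated array 3 with siRNA arrays 4 and 5, and cluster 4 untreated array 4 with siRNA arrays 6 and 7. The target of the other siRNA served as a check of the labels: *Dmd*, which encodes dystrophin, lay between 10.05 and 10.32 on the untreated arrays and between 10.03 and 10.51 on the GL2 siRNA arrays, a log2 change of 0.10 ± 0.11 (SE) that did not pass the test (adjusted p = 0.79), against 8.07 to 8.52 with dystrophin siRNA. *Elavl1*, an RNA-binding protein gene, had a change of 0.05 ± 0.07 (adjusted p = 0.87).

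With GL2 siRNA, 321 of the 19437 detected probes passed the test, 1.65% of them, 147 higher (0.756%) and 174 lower (0.895%). The test was limma's moderated linear model with Benjamini-Hochberg adjustment over all 46632 probes, where 342 (0.733%) passed, 0.339% higher and 0.395% lower, and a call is an adjusted p below 0.05. Levels are background-corrected, quantile-normalized log2 signals, changes are GL2 siRNA minus untreated on the log2 scale, and errors are SE from that fit unless named otherwise. The median change of all detected probes was 0.02. The called probes named 228 genes, and 113 probes changed more than 2-fold, 44 higher and 69 lower. In 301 of the 321 called probes the 2 groups did not overlap, against 1215 (6.25%) of all detected probes, 3.09% higher and 3.16% lower. A call favours probes whose groups lie apart, so this count is no separate support for the calls.

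The number of calls depended on the processing, on which probes and arrays entered the fit, on the clusters and on single arrays. It was 811 when only the probes detected on at least 4 arrays were fitted, 836 with no background correction, 820 with a normexp correction, 651 with an intensity trend, and 205 when only the 2 compared groups were fitted. With the clusters as a block, 901 detected probes passed (4.64%), 406 higher (2.09%) and 495 lower (2.55%), among them all 321. The clusters were read from the same signals, so that the p-values of the blocked fit are too small to an unknown extent. This holds wherever that fit is quoted below. Leaving out untreated array 1, 2, 3 or 4 left 147, 181, 163 or 142 calls, and leaving out GL2 siRNA array 4 left 208. Centring the arrays on their medians in place of quantile normalization gave 91 higher and 173 lower probes. At an unadjusted p under 0.05, 3454 of the 19437 detected probes differed in either direction. That is the background for every list count at that level below.

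**Figure D1:**
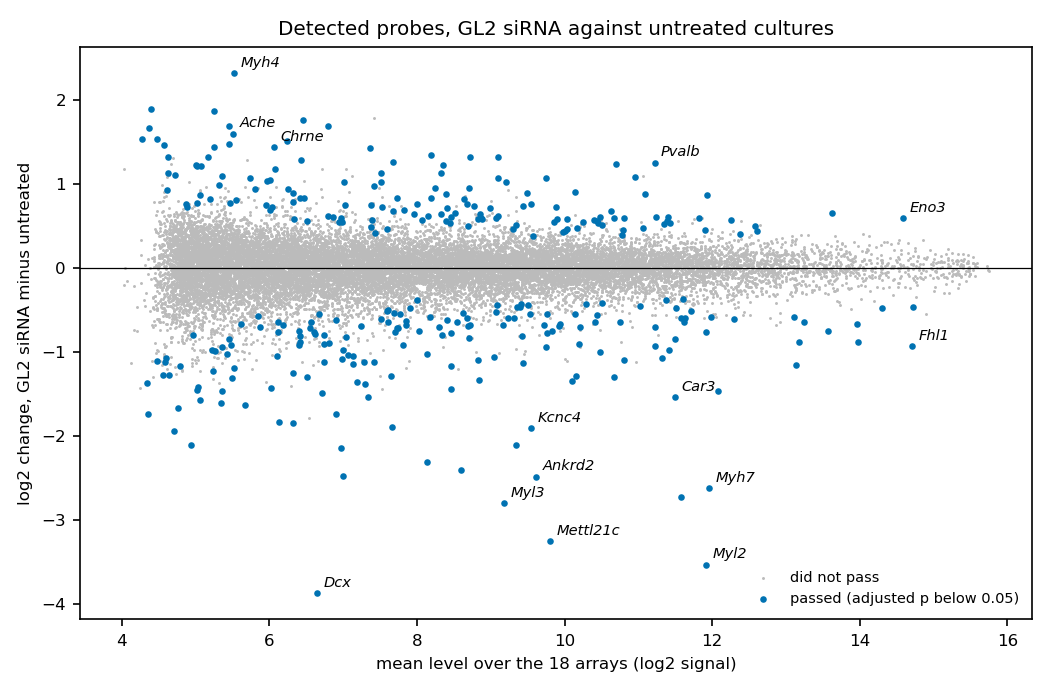
Each point is a detected probe, with its mean log2 signal over the 18 arrays on the x axis and its log2 change with GL2 siRNA on the y axis; blue points passed the test. The Dcx point at the bottom is a probe not detected on any GL2 siRNA array, so that its fall is only bounded. Among probes detected in both groups Myl2 fell by 3.53 and Myh4 rose by 2.33, and Myl2, Myh7 and Myl3 fell at medium to high signal. The Myh4 probe met the detection rule only with the GL2 siRNA arrays, so its direction was not free, and a second Myh4 probe had 0.14.

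A set of slow-fibre and cardiac contractile genes fell. Of 16 detected genes in a list of slow-fibre and cardiac muscle genes, 6 were lower and 0 higher, where 1.83% of all 10535 genes passed by their brightest probe, 1.09% lower and 0.74% higher. These shares are the background for the list counts of the main fit below. The lists were chosen with earlier results of these data known, so a count above its share is no independent support. The 6 were *Myl2*, *Myl3*, *Myh7*, *Myoz2*, *Csrp3* and *Ankrd1*, and the list median was -0.19. The slow troponin genes were not among them: *Tnnt1*, *Tnni1* and *Tnnc1* had changes of 0.05, -0.05 and 0.02.

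*Myl2*, the regulatory light chain of slow and ventricular myosin, lay at 12.84, 13.13, 13.07 and 13.22 on untreated arrays 1 to 4 and at 10.39, 11.08, 10.84, 8.58, 9.00, 8.37 and 8.45 on GL2 siRNA arrays 1 to 7. No GL2 siRNA array reached the untreated range, and arrays 4 to 7 lay below arrays 1 to 3. The change was -3.53 ± 0.45, 11.6-fold lower (adjusted p = 2.9e-04). *Myl3*, the essential light chain of the same myosin, fell from 9.96, 10.06, 10.19 and 10.11 to 7.88, 7.46, 7.33, 6.75, 6.87, 7.33 and 7.35, a change of -2.80 ± 0.20 (adjusted p = 4.7e-07). *Myh7*, the slow and beta-cardiac heavy chain, was at 12.35, 12.38, 12.47 and 12.51 in untreated and at 9.94, 10.34, 10.16, 9.60, 9.47, 9.62 and 9.52 in GL2 siRNA cultures. Its arrays were tightly grouped on both sides, and the change of -2.62 ± 0.16 had an adjusted p of 4.4e-08.

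Smaller falls were measured in Z-disc and stretch-sensing genes at high signal. *Myoz2*, a calsarcin that binds calcineurin at the Z-disc, lay between 14.18 and 14.37 in untreated and between 13.22 and 13.66 in GL2 siRNA cultures (-0.88 ± 0.10, adjusted p = 6.9e-05). *Csrp3*, the muscle LIM protein, lay between 13.69 and 14.04 against 12.81 to 13.40 (-0.75 ± 0.11, adjusted p = 9.5e-04). *Ankrd1*, a titin-binding ankyrin-repeat protein of the heart, had a change of -0.76 ± 0.17 (adjusted p = 0.045) a call lost in 13 of 18 left-out fits (each omits 1 array), each of the 4 untreated arrays included, with an adjusted p up to 0.15. *Ankrd2*, its stretch-responsive relative in slow skeletal muscle, was at 10.79, 10.26, 10.42 and 10.51 in untreated cultures and at 8.79, 8.25, 7.94, 7.12, 7.57, 8.20 and 8.20 with GL2 siRNA. That is a change of -2.49 ± 0.23 (adjusted p = 6.9e-06) with no overlap. By their brightest probes, 2 of 23 detected genes of the sarcomere scaffold fell and 1 rose, where 1.09% of all genes were lower and 0.74% higher. A dimmer *Tmod4* probe, 1 of 3 detected, passed as well. *Fhl1*, a LIM-domain protein, lay between 15.10 and 15.28 against 13.66 to 14.57 (-0.93 ± 0.15, adjusted p = 3.8e-03), and *Xirp2*, an actin-binding Xin-repeat protein, between 10.59 and 11.03 against 9.07 and 10.16 (-1.30 ± 0.19, adjusted p = 1.2e-03). A second, dimmer *Fhl1* probe had -1.09 ± 0.26, which did not pass (adjusted p = 0.054). *Ky*, a peptidase-like protein needed for muscle upkeep, was the one that rose (0.69 ± 0.15, adjusted p = 0.039), a call lost in 11 of the left-out fits (adjusted p up to 0.13), all 4 untreated arrays among them.

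The promoters of *Myl3* and *Ankrd2* are shown as genes that fell together, from 250 bases before to 50 after the RefSeq start (GRCm38.p6). Capitals mark E-boxes, CANNTG, the letters that MyoD-family factors bind, on either strand.
Myl3, chr9:110763428-110763727, plus strand: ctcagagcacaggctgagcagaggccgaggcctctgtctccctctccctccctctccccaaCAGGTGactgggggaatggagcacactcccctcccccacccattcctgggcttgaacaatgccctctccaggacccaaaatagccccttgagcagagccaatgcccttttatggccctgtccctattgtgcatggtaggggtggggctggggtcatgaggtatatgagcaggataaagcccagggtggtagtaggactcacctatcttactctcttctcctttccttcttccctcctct
Ankrd2, chr19:42035777-42036076, plus strand: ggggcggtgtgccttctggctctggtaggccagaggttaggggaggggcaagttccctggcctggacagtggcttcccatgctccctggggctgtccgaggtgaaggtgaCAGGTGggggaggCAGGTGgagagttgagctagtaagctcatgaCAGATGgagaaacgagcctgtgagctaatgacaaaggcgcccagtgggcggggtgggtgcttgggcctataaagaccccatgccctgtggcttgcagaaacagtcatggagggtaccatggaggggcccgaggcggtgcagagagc
*Myl3* held 1 E-box and *Ankrd2* held 3. Of all 32851 promoter windows 72.3% held at least 1, and the share was 69.1% over the 139 windows of genes called lower and 69.6% over the 102 windows of genes called higher, so the motif is common in each set.

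*Rcan1*, *Rcan2*, *Mettl21c* and *Car3*, all outside that list, also fell. *Rcan1*, an inhibitor of calcineurin that is itself induced by it, lay at 8.46, 7.98, 7.41 and 7.72 in untreated cultures by one probe and at 7.02, 6.63, 6.02, 4.01, 4.98, 4.62 and 4.68 with GL2 siRNA (-2.47 ± 0.44, adjusted p = 8.3e-03, and 0.052 without untreated array 1). A second, brighter probe gave -0.98 ± 0.17 (adjusted p = 7.3e-03), so both fell and by unequal amounts. *Rcan2*, of the same family, had a change of -1.63 ± 0.31 (adjusted p = 0.014), a call that was lost when untreated array 2 or 4 was omitted (adjusted p = 0.060 and 0.065). *Mettl21c*, a lysine methyltransferase of skeletal muscle, was between 10.82 and 11.01 in untreated and between 6.42 and 8.58 with GL2 siRNA, a change of -3.26 ± 0.33 (adjusted p = 1.9e-05). *Car3*, the carbonic anhydrase of slow fibres, fell by 1.54 ± 0.14 (adjusted p = 4.8e-06) and by 1.46 ± 0.18 with a second probe.

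Among 16 detected genes of oxidative metabolism 2 were lower and 1 higher, where 1.09% of all genes were lower and 0.74% higher. Of the 16, 14 had a positive change, and their median change was 0.17 on the log2 scale, against -0.002 over all genes. An unadjusted p under 0.05 was reached by 5 higher and 2 lower genes, and with the clusters as a block 3 were higher and 2 lower, with *Cox7a1* and *Idh3a* added to the higher genes. *Cpt1b*, which admits long-chain fatty acids to muscle mitochondria, had a change of -0.68 ± 0.13 (adjusted p = 0.018), lost without untreated array 1, 2 or 4 (adjusted p up to 0.091). *Fabp3*, the heart-type fatty acid carrier, lay between 14.14 and 14.47 against 13.54 to 13.78 (-0.66 ± 0.11, adjusted p = 3.6e-03). *Cox8b*, a muscle subunit of cytochrome c oxidase, went the other way, from between 13.12 and 13.36 to between 13.73 and 14.31 (0.66 ± 0.11, adjusted p = 4.6e-03).

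**Figure D2:**
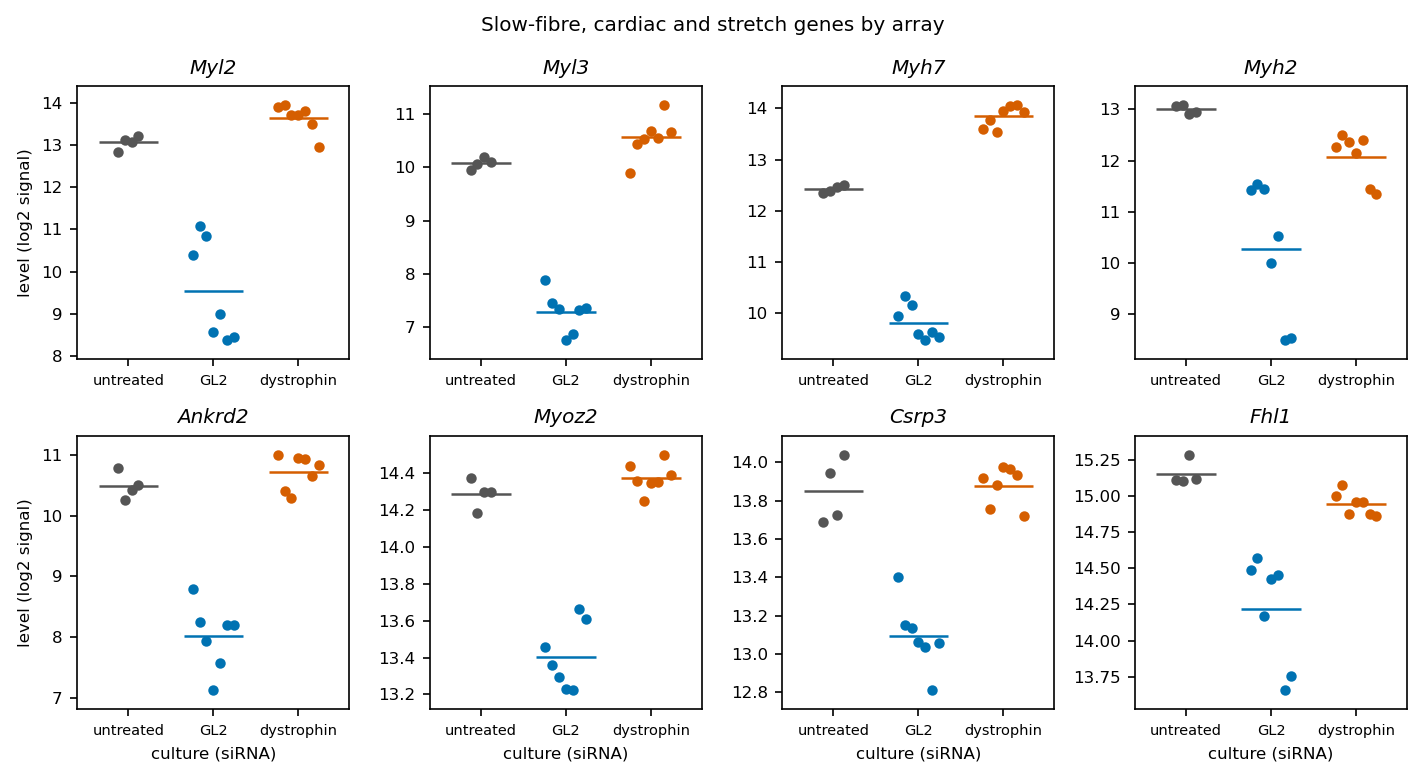
Points are single arrays and lines group means, with the log2 signal on a y axis of its own range in each panel and the culture on the x axis (4 untreated, 7 GL2 siRNA, 7 dystrophin siRNA). In all 8 genes every GL2 siRNA array lay below every untreated array, and Myh2 spread from 8.48 to 11.54 with GL2 siRNA.

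Fast-fibre genes moved in both directions, with more of them higher. Of 16 detected genes of the fast-fibre list 4 were higher and 1 lower, where 0.74% of all genes were higher and 1.09% lower. The list median was 0.14. *Pvalb*, the calcium buffer of fast fibres, was at 11.81, 11.68, 11.67 and 11.91 in untreated cultures and at 13.27, 13.03, 13.04, 13.19, 13.03, 12.64 and 12.98 with GL2 siRNA, 2.39-fold higher (1.26 ± 0.18, adjusted p = 9.2e-04). *Ampd1*, the muscle AMP deaminase, lay between 11.44 and 11.56 against 11.97 to 12.32 (0.61 ± 0.09, adjusted p = 1.4e-03). *Eno3*, the muscle enolase, lay between 14.47 and 14.59 against 14.92 to 15.31 (0.60 ± 0.10, adjusted p = 4.4e-03). The ranges of these 3 genes did not overlap.

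The fast myosin heavy chains did not move together. *Myh1*, the type IIx chain, rose from 5.70, 5.89, 6.33 and 5.43 to between 6.69 and 7.14 (1.05 ± 0.18, adjusted p = 7.0e-03). *Myh4*, the type IIb chain, was at 5.87, 6.04, 6.46 and 4.92 in untreated cultures and at 9.16, 8.30, 8.31, 8.65, 8.56, 6.62 and 7.43 with GL2 siRNA by one probe (2.33 ± 0.39, adjusted p = 5.4e-03). A second *Myh4* probe had a change of 0.14 ± 0.18 (adjusted p = 0.83), so the rise rests on 1 of 2 probes, and the heavy chain genes have closely related sequences. The *Myh4* probe that rose was detected on 3 untreated, 7 GL2 siRNA and 0 dystrophin siRNA arrays. It met the detection rule only with the GL2 siRNA arrays, so its direction was not free. *Myh2*, the type IIA chain of fast oxidative fibres, fell from 13.07, 13.09, 12.90 and 12.96 to 11.42, 11.54, 11.44, 9.99, 10.52, 8.48 and 8.54. The fall differed between the array clusters, shallowest on GL2 siRNA arrays 1 to 3, and the change was -2.73 ± 0.50 (adjusted p = 0.011, and 0.064 when only the 2 groups entered the fit).

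Several genes of the neuromuscular junction rose. Of 13 detected genes 4 were higher and 0 lower, with a median change of 0.32, where 0.74% of all genes were higher and 1.09% lower. *Chrne*, the adult epsilon subunit of the acetylcholine receptor, was at 5.35, 6.53, 6.51 and 6.37 in untreated cultures and at 7.79, 7.81, 7.66, 7.87, 7.96, 6.95 and 7.37 with GL2 siRNA. All GL2 siRNA arrays were above all untreated arrays, of which array 1 was low (1.44 ± 0.27, adjusted p = 0.014, and 0.073 without untreated array 1). *Ache*, the acetylcholinesterase of the synaptic cleft, was at 5.17, 6.29, 5.69 and 5.02 against 6.95, 7.39, 7.34, 6.99, 6.69, 7.27 and 7.37 (1.60 ± 0.30, adjusted p = 0.014, and 0.071 and 0.077 without untreated array 1 or 4). Its probe was detected on 3 untreated, 7 GL2 siRNA and 0 dystrophin siRNA arrays. *Ache*, 1 of the 4 counted as higher, thus met the detection rule only with the GL2 siRNA arrays, and its direction was not free. *Chrnd*, the delta subunit, had a change of 0.60 ± 0.12 (adjusted p = 0.026) by its brightest probe, and 2 further probes had 0.50, which did not pass. *Etv5*, an Ets factor of synaptic nuclei, had 0.54 ± 0.12 (adjusted p = 0.032).

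The calls of *Chrnd* and *Etv5* were lost in 4 and 7 left-out fits, untreated arrays 1, 3 and 4 in both (adjusted p up to 0.13 and 0.14), and under median centring (adjusted p = 0.15 and 0.13). *Chrng*, the fetal gamma subunit, had 0.41 ± 0.14 by its brightest probe (adjusted p = 0.24) and 1.13 ± 0.17 by a second (adjusted p = 2.0e-03). *Chrnb1* and *Rapsn*, a further receptor subunit and its clustering protein, had 0.19 and 0.20, neither of which passed. *Kcnj12*, an inward-rectifier potassium channel of muscle, rose from 7.45, 7.62, 7.82 and 7.91 to between 8.70 and 9.26 (1.23 ± 0.16, adjusted p = 4.3e-04). *Kcnc4*, a voltage-gated potassium channel, fell from between 10.80 and 10.94 to between 8.07 and 9.53 (-1.91 ± 0.22, adjusted p = 1.1e-04), and a second probe, detected on all 4 untreated and 0 of 7 GL2 siRNA arrays, was at least 1.29-fold lower. That second *Kcnc4* probe passed the detection rule only through the untreated arrays, which fixes its direction. *Fxyd1*, a regulator of the sodium pump, had -0.38 ± 0.09 (adjusted p = 0.047), a call lost in 16 of the 18 left-out fits (all but GL2 siRNA arrays 1 and 3, adjusted p up to 0.16). These are the 3 called by their brightest probes among 16 detected channel and pump genes, where 0.74% of all genes were higher and 1.09% lower. A dimmer *Kcnma1* probe, 1 of 3 detected, passed as well.

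The promoters of *Chrne* and *Pvalb* are shown as genes that rose together, with the same start and build rules. Capitals mark E-boxes and N-boxes, CCGGAA on either strand, the letters that Ets factors bind in synaptic genes. For *Pvalb* the first of 2 RefSeq starts is shown.
Chrne, chr11:70619145-70619444, minus strand: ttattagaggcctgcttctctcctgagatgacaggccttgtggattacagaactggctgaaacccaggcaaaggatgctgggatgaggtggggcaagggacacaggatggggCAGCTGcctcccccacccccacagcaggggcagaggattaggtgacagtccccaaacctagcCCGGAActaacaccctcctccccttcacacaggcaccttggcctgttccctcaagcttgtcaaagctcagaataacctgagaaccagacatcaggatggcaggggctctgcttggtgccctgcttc
Pvalb, chr15:78206351-78206650, minus strand: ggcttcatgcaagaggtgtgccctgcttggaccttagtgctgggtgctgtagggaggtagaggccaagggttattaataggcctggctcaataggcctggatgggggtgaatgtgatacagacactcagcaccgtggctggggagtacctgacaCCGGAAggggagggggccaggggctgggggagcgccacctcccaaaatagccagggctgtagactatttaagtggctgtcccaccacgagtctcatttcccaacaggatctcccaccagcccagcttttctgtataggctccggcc
*Chrne* held 1 E-box and 1 N-box, and *Pvalb* held 1 N-box. An N-box was in 14.9% of all windows, in 14.7% of windows of genes called higher and in 8.63% of those of genes called lower.

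**Figure D3:**
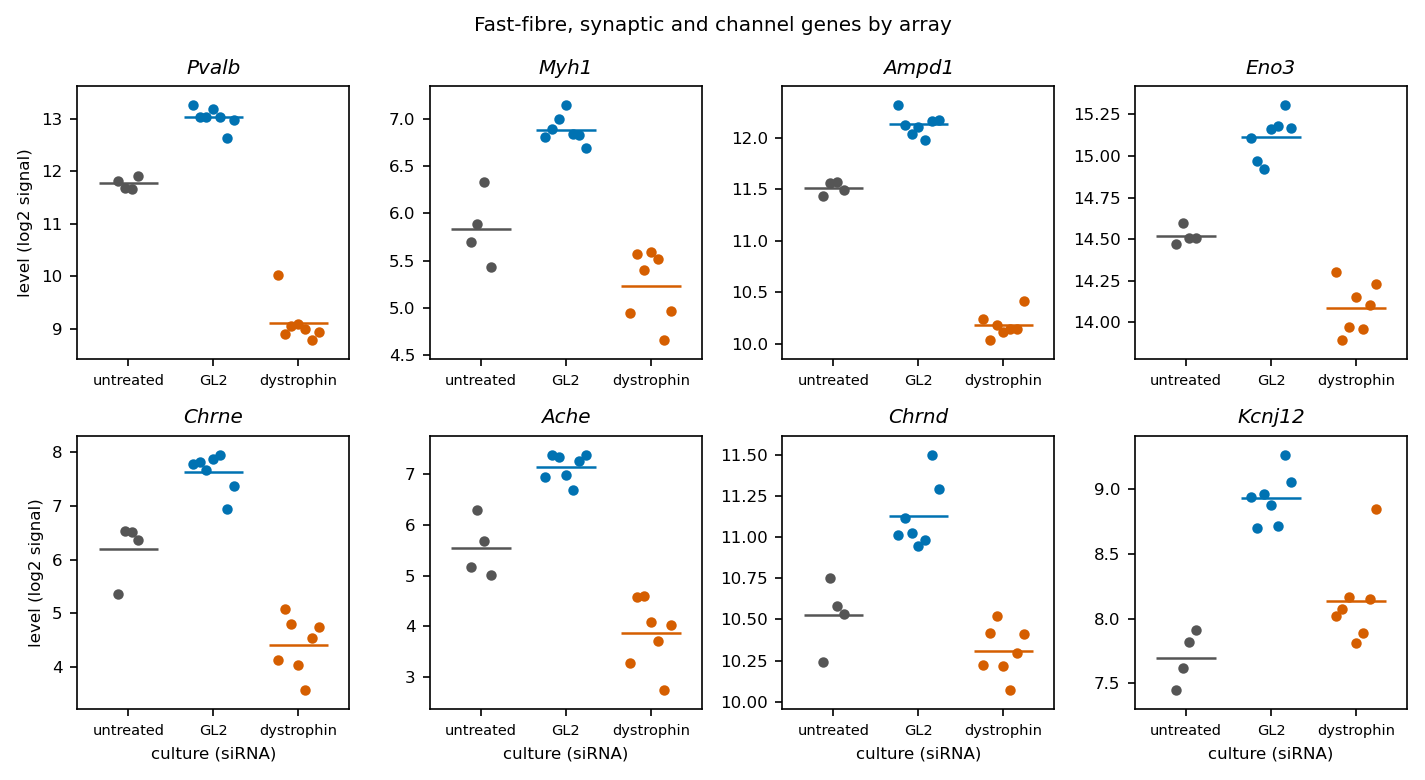
Points are single arrays and lines group means, with the log2 signal on a y axis of its own range in each panel and the culture on the x axis. In all 8 genes every GL2 siRNA array lay above every untreated array. The direction of Ache was not free, because its probe met the detection rule only with the GL2 siRNA arrays. The dystrophin siRNA arrays of Pvalb lay between 8.77 and 10.02, below both other groups.

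Genes of glycogen and glycolysis were mostly on the positive side, as were those of oxidative metabolism. Of 19 detected genes of glycogen, glycolysis and phosphagen metabolism 2 were higher and 0 lower, where 0.74% of all genes were higher and 1.09% lower. Of the 19, 15 had a positive change, and their median was 0.16, against -0.002 over all genes. In the oxidative list 14 of 16 were positive with a median of 0.17, so the lean was not particular to this list. *Phkg1*, the catalytic subunit of muscle phosphorylase kinase, rose from between 6.02 and 6.16 to between 6.82 and 7.51 (1.07 ± 0.21, adjusted p = 0.018), a call lost without any 1 of the 4 untreated arrays (adjusted p up to 0.075). *Pygm*, the muscle glycogen phosphorylase, lay between 10.49 and 10.66 against 10.69 to 11.27 (0.51 ± 0.11, adjusted p = 0.041), a call lost in 14 of the left-out fits (adjusted p up to 0.15), all but those without GL2 siRNA array 3 or dystrophin siRNA array 5, 6 or 7. With the clusters as a block 6 genes of the list passed, *Ckm*, *Gpd1*, *Ckmt2* and *Phka1* in addition. In that fit 1.98% of all genes were higher and 3.19% lower. *Ckm*, muscle creatine kinase, had a change of 0.51 ± 0.13 (adjusted p = 0.074, and 3.1e-03 with that block).

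Genes that sense foreign RNA did not pass the test in the main fit, and many lay on the positive side. Of 28 detected genes of the interferon and double-stranded RNA list 0 passed with limma, while an unadjusted p under 0.05 was reached by 12 higher and 0 lower genes, 23 had a positive change, and the median was 0.22. Over all detected probes 3454 of 19437 reached that level in either direction, and the median change over all genes was -0.002. With the clusters as a block 4 genes of the list were higher and 0 lower, *Rsad2*, *Ifit3*, *Gbp3* and *Ifi35*, where 1.98% of all genes were higher and 3.19% lower. *Rsad2*, the antiviral protein viperin, was at 8.75, 8.58, 8.71 and 8.77 in untreated cultures and at 9.36, 9.07, 9.35, 10.02, 10.19, 9.68 and 9.78 with GL2 siRNA. The groups did not overlap, and the change was 0.93 ± 0.24 (adjusted p = 0.086, and 2.4e-03 with the block). *Ifit3*, an antiviral protein induced by interferon, was at 7.27, 6.93, 7.00 and 6.92 against 7.70, 7.34, 7.71, 8.10, 8.40, 7.90 and 7.97 (0.84 ± 0.20, adjusted p = 0.063, and 6.9e-03 with the block).

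The sensors themselves had changes of 0.27 for *Ddx58*, which encodes RIG-I (adjusted p = 0.36), 0.32 for *Eif2ak2*, the double-stranded RNA-activated kinase PKR (adjusted p = 0.31), and -0.41 for *Tlr7*, an endosomal receptor of single-stranded RNA (adjusted p = 0.79). *Cxcl9*, an interferon-gamma-induced chemokine outside the lists and named after its values were seen, had 0.89 ± 0.20 and 0.88 ± 0.18 by 2 probes (adjusted p = 0.044 and 0.026). *Ccl21b*, a lymphoid chemokine with near-identical copies in the genome, had 1.48 ± 0.28 (adjusted p = 0.016, and 0.087 and 0.086 without untreated array 1 or 4). Of 12 detected NF-kappaB and chemokine list genes 0 passed, where an unadjusted p under 0.05 was reached by 1 higher and 2 lower genes.

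The machinery that handles small RNAs was nearly flat. Of 17 detected genes of RNA interference 1 was higher and 0 lower, where 0.74% of all genes were higher and 1.09% lower. The list median was 0.03, which was -0.01 under median centring. *Ago2*, the slicing Argonaute, lay between 10.79 and 11.17 against 10.74 to 11.19 (0.12 ± 0.11, adjusted p = 0.74). *Dicer1*, which cuts microRNA precursors, had 0.15 ± 0.12 by its brightest probe (adjusted p = 0.69). The 1 called gene was *Xrn2*, a nuclear exoribonuclease, with 0.79 ± 0.16 (adjusted p = 0.026), lost without untreated array 2 or 3 or GL2 siRNA array 5 or 6 (adjusted p up to 0.071), while a second probe had -0.22 ± 0.14.

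Single genes passed in lists of stress and growth programmes, where 0.74% of all genes were higher and 1.09% lower. In the p53 and apoptosis list 1 of 16 detected genes was higher, *Ccng1*, cyclin G1 (0.44 ± 0.10, adjusted p = 0.044, lost in 14 of the left-out fits, each untreated array included, with an adjusted p up to 0.15). Further *Ccng1* probes had 0.30 and 0.27, which did not pass (adjusted p = 0.32 and 0.57). In the heat shock list 1 of 9 was lower, *Hspb1*, the small heat shock protein of the Z-disc, which lay between 14.67 and 14.94 against 14.15 to 14.47 (-0.46 ± 0.09, adjusted p = 0.014, and 0.076 and 0.060 without untreated array 1 or 4). Of 15 myogenic regulators *Mef2a* was higher (0.61 ± 0.14, adjusted p = 0.042), lost in 11 of the left-out fits, each untreated array included (adjusted p up to 0.16). A second *Mef2a* probe had 0.47 ± 0.15, which did not pass (adjusted p = 0.21). Of 13 genes of TGF-beta, BMP and myostatin signalling *Acvr2b*, an activin and myostatin receptor, was higher (0.73 ± 0.14, adjusted p = 0.017), lost without untreated array 2, 3 or 4 (adjusted p up to 0.083).

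By its brightest probe no gene passed among 20 of the unfolded protein and integrated stress response (limma's unadjusted p was under 0.05 in 1 higher and 1 lower gene), 10 of antioxidant defence and metallothioneins (2 and 0), 13 immediate early genes (0 and 5), 21 cell cycle genes (4 and 1), 19 of lysosome and autophagy (1 and 0), 21 of cholesterol and fatty acid synthesis (0 and 0) or 11 of IGF signalling (1 and 2). The same held for 12 genes of the dystrophin-associated complex (2 and 1), 14 of excitation-contraction coupling (5 and 1), 13 atrophy and glucocorticoid targets (0 and 1) and 5 of embryonic and fetal muscle (1 and 0). Beside these unadjusted counts, 3454 of all 19437 detected probes reached that level in either direction. A dimmer probe did pass for *Srebf2* of cholesterol synthesis, 1 of 3 detected, and for *Chrng* of fetal muscle, 1 of 2 detected. With the clusters as a block *Cacng1* and *Pln* of excitation-contraction coupling passed as higher, and *Gsta4* of antioxidant defence.

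**Figure D4:**
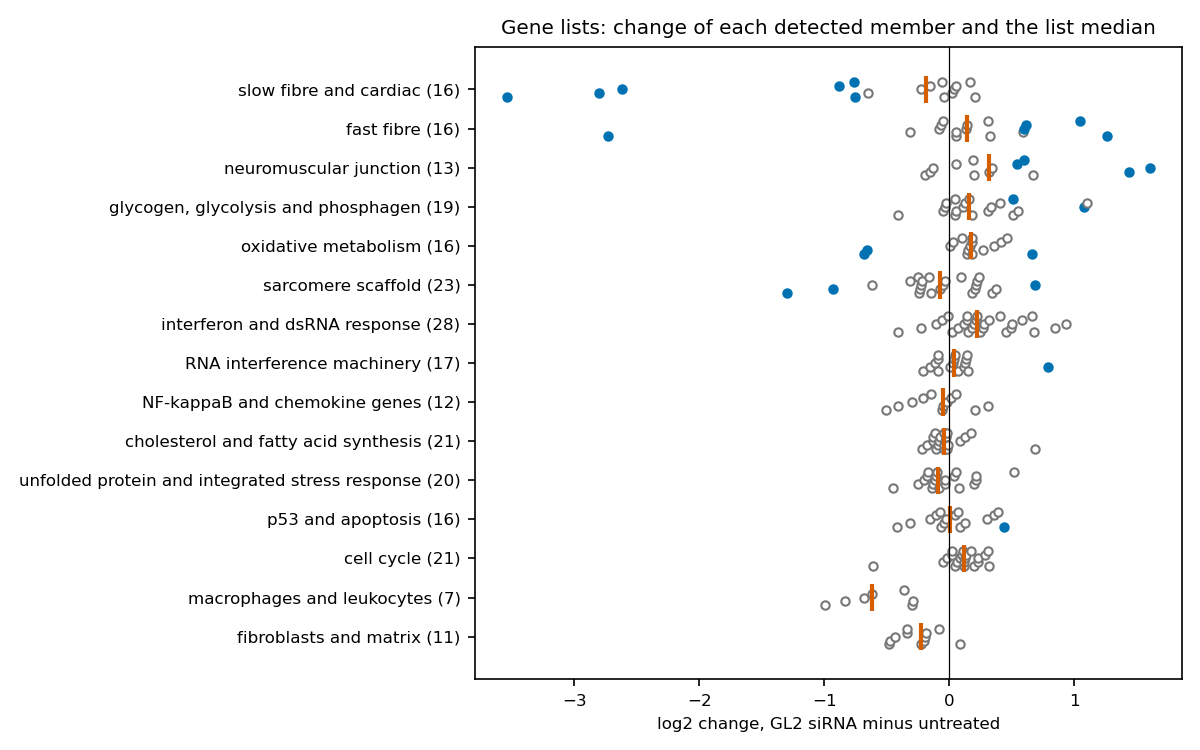
Each circle is the log2 change of a detected list member by its brightest probe, filled where it passed the test, and the orange bar is the list median; the number of detected members stands beside each list name. Filled circles lie to the left in the slow-fibre list, to -3.53, and to the right in the neuromuscular junction list, to 1.60. The circle at 1.60 is Ache, whose probe met the detection rule only with the GL2 siRNA arrays, so its direction was not free. The interferon list has no filled circle.

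Genes far from the muscle programme were among the strongest calls. *Dcx*, doublecortin, a microtubule-binding protein of migrating neurons, was at 7.81, 7.04, 7.29 and 7.50 in untreated cultures and not detected on any GL2 siRNA array. That is at least 5.27-fold lower (adjusted p = 1.1e-06), where the fold was taken against the lowest detected signal of each array or the probe's own level. A second *Dcx* probe, detected on all arrays, went from 9.91, 9.75, 9.90 and 10.10 to 8.12, 7.47, 7.22, 8.08, 8.20, 7.77 and 7.83 (-2.10 ± 0.23, adjusted p = 5.5e-05). *Slitrk4*, a neuronal transmembrane protein, fell from between 8.42 and 8.67 to between 6.01 and 7.51 (-1.89 ± 0.27, adjusted p = 1.3e-03). These were the 2 called among 8 detected neuronal list genes, where 0.74% of all genes were higher and 1.09% lower.

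Other deep falls were *Lce1f* of the skin barrier (-2.14 ± 0.28), *Hspa1l*, an Hsp70 relative (-1.54 ± 0.21), *Serpina12*, the adipokine vaspin (-2.31 ± 0.50), and *Map3k7cl* (-1.85 ± 0.39). The last pair lost the call without any 1 of the 4 untreated arrays (adjusted p up to 0.12 and 0.10), and in 5 and 1 further left-out fits. A second, dimmer *Serpina12* probe had -0.20 ± 0.19 (adjusted p = 0.77) with overlapping groups. The *Serpina12* fall therefore rests on 1 of 2 probes. *Nxf7* of the RNA export factor family, the phosphatase *Dusp26*, the keratin *Krt80* and *Nxph4* were detected on 0 of 7 GL2 siRNA arrays, at least 2.10-, 1.82-, 1.19- and 1.36-fold lower. *Nxph4* passed with an adjusted p of 0.043 and lost the call in 13 of the left-out fits (adjusted p up to 0.17), each untreated array included. It met the detection rule only with the untreated arrays, so its direction was not free.

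The strongest rises outside the lists were in genes of low or medium signal. *Fam107a*, an actin-associated protein, went from 5.49, 6.29, 5.85 and 6.14 to 7.43, 7.27, 7.66, 7.81, 7.77, 7.95 and 8.08 (1.77 ± 0.20, adjusted p = 7.1e-05). *Col23a1*, a transmembrane collagen, went from 7.04, 7.11, 7.22 and 7.53 to between 8.35 and 8.84 (1.43 ± 0.14, adjusted p = 8.8e-06), and a second probe had 0.95 ± 0.13. *Ufsp1*, a protease of the ubiquitin-like protein Ufm1, went from between 8.30 and 8.60 to between 9.52 and 10.05 (1.32 ± 0.12, adjusted p = 4.0e-06). The groups did not overlap in these 3 genes.

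*Scml4*, *Cd300c* and *Clec18a* rose by 1.69, 1.69 and 1.29, and *Lrtm1* by 1.35 and 1.32 with 2 probes. *Dhrs7c*, a sarcoplasmic reticulum dehydrogenase, had 1.24 ± 0.25 (adjusted p = 0.023), lost when GL2 siRNA array 7 or any untreated array was omitted, and the call of the brighter-changing *Lrtm1* probe was lost without untreated array 1, 2 or 4 (adjusted p up to 0.082). *Nmrk2*, a nicotinamide riboside kinase of muscle, had 1.27 ± 0.22 and 1.13 ± 0.15 by 2 probes and -0.25 ± 0.16 by another. *Ephb1* and *Rtn4* rose by 1.51 and 1.32 with 1 probe each, while brighter probes had 0.10 for *Ephb1* and 0.13 for *Rtn4*, and the *Rtn4* call was lost in 13 of the left-out fits, each untreated array included (adjusted p up to 0.17). *Prom2*, a first *Pdzrn4* probe, *Idi2* and *Scn10a* were detected on no untreated array and were at least 1.92-, 1.79-, 1.50- and 1.43-fold higher. A second *Pdzrn4* probe, detected on 2 untreated and 7 GL2 siRNA arrays, had 1.21 ± 0.23 (adjusted p = 0.012). The first *Pdzrn4* probe, *Idi2* and *Scn10a* passed the detection rule only through the GL2 siRNA arrays, which fixes their direction. *Prom2*, *Scml4*, the second *Pdzrn4* probe and the called probes of *Myh4* and *Ache* also met the rule only with the GL2 siRNA arrays. Their direction was therefore not free either. The *Scn10a* call was lost without untreated array 1 or 4 (adjusted p = 0.055 and 0.061).

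Over genes with more than 1 detected probe, 93 had at least 1 called, all probes were called in 24, and all had the same sign in 77. For 135 genes the call rests on a single detected probe. Of the called probes, 15 were undetected on all GL2 siRNA arrays and 16 on all untreated arrays.

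The dystrophin siRNA cultures, which had the same reagent and dose and share the untreated arrays as their comparison, give a second level for each gene. Between the 2 siRNAs directly 8.27% of detected probes differed, 4.75% higher and 3.52% lower with GL2 siRNA. The named genes were chosen for their values on the same GL2 siRNA arrays, so a count of their direct differences is no result, and single values are given side by side. *Myl2* lay between 12.95 and 13.96 with dystrophin siRNA, a change of 0.59 against untreated that did not pass, and GL2 siRNA minus dystrophin siRNA was -4.12 (adjusted p = 7.3e-07). *Myh7* lay between 13.53 and 14.07, 1.42 above untreated (adjusted p = 3.7e-05). *Dcx* lay between 8.48 and 10.18 by its first probe, 1.92 above untreated (adjusted p = 2.1e-03). *Pvalb* and *Chrne* had changes of -2.66 and -1.77 against untreated (adjusted p = 5.3e-08 and 1.6e-03), the opposite side from GL2 siRNA.

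*Car3*, *Kcnc4* and *Cpt1b* were lower with both siRNAs. Their dystrophin siRNA changes were -1.85, -1.47 and -0.77 (adjusted p = 2.0e-07, 1.2e-03 and 5.4e-03), and the direct differences between the siRNAs, GL2 minus dystrophin, were 0.32, -0.43 and 0.09 (adjusted p = 0.19, 0.29 and 0.84). *Myh2* had -0.94 with dystrophin siRNA, which did not pass (adjusted p = 0.61), and a direct difference of -1.79 (adjusted p = 0.020). *Rsad2* and *Ifit3* had 0.44 each with dystrophin siRNA (adjusted p = 0.61 and 0.50), with direct differences of 0.49 and 0.40 that did not pass (adjusted p = 0.25 and 0.29).

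Markers of other cells in the cultures were measured beside these genes. Of 8 detected myotube markers 0 passed, with an unadjusted p under 0.05 in 1 higher and 2 lower with limma, and their mean level was 13.47 to 13.48 on untreated and 13.31 to 13.52 on GL2 siRNA arrays. *Myh3* and *Mylpf*, 2 defining myotube genes, had no named probe here and were not analysed. Of 7 detected macrophage markers 0 passed, with an unadjusted p under 0.05 in 0 higher and 2 lower genes, but all 7 had a negative change and the median was -0.62. Their mean level ranged from 10.00 to 10.28 on untreated and from 8.75 to 10.46 on GL2 siRNA arrays, *Ptprc* was not detected, and *Cd68* and *Csf1r* had no named probe here. The low arrays were GL2 siRNA arrays 6 and 7 in *Cd14* (6.59 and 6.58) and *Adgre1* (7.54 and 7.68), which encode a lipopolysaccharide co-receptor and a surface receptor of macrophages. The median macrophage change with dystrophin siRNA was -0.65. Of 11 detected fibroblast and matrix genes 0 passed (unadjusted p under 0.05 in 0 higher and 3 lower genes), with a median of -0.23 and mean levels of 11.21 to 11.41 against 10.63 to 11.35. No gene passed among 3 satellite cell and myoblast markers (1 higher and 0 lower with limma's unadjusted p under 0.05), 8 of endothelium (0 and 2), 4 of adipocytes (0 and 1), 2 of Schwann cells (0 and 0) and 5 of smooth muscle (0 and 0). The part of these cells in the changes above was not tested.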

How the data were processed

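Each culture's RNA was hybridised to 1 Illumina MouseWG-6 v1.1 bead array. The deposited bead intensity values are the authors' non-normalized averages per probe, each with a detection p-value that the authors' scanner software gave. A second deposited table holds the authors' processed log2-scale signal values after background correction and quantile normalization with lumi, whose version is not given in the sources used here. From the intensities, the RMA background model, log2 and quantile normalization were recomputed; the log2 values lay a median of 0.0025 and at most 0.022 from the authors'. Probes were named from the platform annotation, and 45 otherwise unnamed probes from gene IDs in the study's supplementary tables; 16611 probes had no name.

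All 18 arrays and 3 groups entered 1 limma model (limma 3.58.1, R 4.3.3; lmFit, eBayes), with Benjamini-Hochberg adjustment over 46632 probes, and only probes detected on at least 4 arrays are reported. Probes not detected in a whole group have lower bounds of fold change. Genes are named if among the 20 strongest rises or falls without overlap, or called members of a list by the brightest detected probe, with other probes where they differ. Members and lists were chosen with earlier results of these data known. Array clusters came from hierarchical clustering of deviations from group means, with the tree cut at 4 clusters. Same-numbered untreated and GL2 siRNA arrays correlated between -0.02 and 0.25, so numbers were not taken as pairs. The number of arrays limits the precision. The script was tested on simulated data with 200 changed probes. Alternatives covered background, scaling, filters, blocks, trend and each array left out.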

Additional observations from a re-analysis of the deposited data

Results flagged for a closer look

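Of 132 groups tested, over the named probes in the untreated and the GL2 siRNA arrays, 9 had an array standing apart from the rest of its group; chance alone gives about 1 in 20. Untreated array 1 was high in *Scml4* (5.51, the others 4.82 to 4.87) and low in *Cd300c* (6.20, the others 6.67 to 6.71), *Chrne* (5.35, the others 6.37 to 6.53) and *Serpina12* (8.92, the others 9.74 to 9.84). Untreated array 3 was high in *Fhl1* (15.28, the others 15.10 to 15.11) and low in *Cox8b* (13.12, the others 13.35 to 13.36). Untreated array 4 was low in *Xirp2* (10.59, the others 10.99 to 11.03) and in *Ky* (11.08, the others 11.18). GL2 siRNA array 6 was low in *Clec18a* (7.16, the others 7.52 to 7.75).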

How the results depend on the processing

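The 321 called probes kept their direction in every alternative that tested them. Calls among detected probes, higher and lower, numbered 836 (403 and 433) with no background correction, 820 (396 and 424) with normexp and an offset of 50, 811 (403 and 408) and 912 (441 and 471) when only probes detected on at least 4 or on all 18 arrays were fitted, 651 (307 and 344) with an intensity trend, 526 (249 and 277) with the clusters as a random block, 901 (406 and 495) with them as a fixed block, and 205 (92 and 113) when the dystrophin siRNA arrays were kept out of the model. Median centring gave 264 (91 and 173), and the authors' values 322 (147 and 175). The cause of these differences was not tested, beyond the smaller number of tests or arrays. With the replicate number as a block the count was 263 (115 and 148), 208 of them shared with the 321; the numbers do not pair untreated with GL2 siRNA arrays, since same-numbered arrays correlated at 0.23, 0.25, -0.01 and -0.02. With 1 array left out the counts ran from 142 to 347 (59 to 154 higher, 83 to 193 lower). Of the 64 named called probes, 39 passed in every left-out fit and 38 in every alternative. Median centring ended the calls of *Ccng1*, *Ankrd1*, *Chrnd*, *Pygm*, *Mef2a*, *Etv5*, *Fxyd1* and *Xrn2*, and keeping out the dystrophin siRNA arrays those of *Ccl21b*, *Rtn4*, *Myh2*, *Rcan1*, *Map3k7cl*, *Nxph4*, *Hspb1*, *Ccng1*, *Ankrd1*, *Chrnd*, *Ky*, *Pygm*, *Acvr2b*, *Mef2a*, *Fxyd1* and *Xrn2*. Under median centring the median changes of the cell cycle and RNA interference lists were 0.05 and -0.01, and with no background correction those of the neuromuscular junction, channel and atrophy lists were 0.19, -0.14 and -0.12. Probes near background limit the size of folds.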
